A study of Mus musculus with 6 samples.

Results

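The genes described here are 45 complement and coagulation genes, of 22274 genes in the deposited table. They were taken by symbol, and each symbol was found once. Complement contributed 25 genes and coagulation 20. Vtn, which acts in both systems, was counted with coagulation, and protease inhibitors of the serpin family were left out. RNA was measured by mRNA sequencing in livers of C57 mice that had received Ad-Dyrk1b, an adenovirus overexpressing mouse Dyrk1b (3 libraries), or Ad-EGFP, the control adenovirus (3 libraries). Dyrk1b is a kinase gene, and the study asks how its activity in liver bears on systemic glucose. All 6 libraries came from livers exposed to an adenovirus. The transgene's promoter, the virus dose, the time after infection and the age and sex of the mice were not given in the sources used here.

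Complement is a set of plasma proteins that is set off by antibody (the C1 complex), by sugars on microbes (mannose-binding lectins) or by its own slow turnover (the alternative pathway). All routes meet at C3, and the last components assemble into the membrane attack complex, a pore in the target membrane. Coagulation is a cascade of proteases that ends in thrombin, which turns fibrinogen into fibrin. Most of these proteins are made by hepatocytes and secreted into blood. The subunits of C1q are an exception, as they come mainly from macrophages, which in liver are the Kupffer cells.

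Sequences before the starts of 5 genes are shown because these genes changed most among the complement genes, with Mbl1 and Mbl2 changing in opposite directions and C6 opposite to C8a and C8b. They are the 250 bases before each start as annotated in RefSeq, 5′ to 3′ on the strand of the gene (GRCm38.p6, the assembly also called mm10). These starts can differ from the GENCODE gene positions given below. The window of C6 ends at 4727209, past its GENCODE start at 4727175, and that of Mbl2 ends at 30232927, short of 30232942. In Mbl1 and Mbl2 the capitals mark the best match between their windows without gaps.
Mbl1 (chr14:41151206-41151455, plus strand): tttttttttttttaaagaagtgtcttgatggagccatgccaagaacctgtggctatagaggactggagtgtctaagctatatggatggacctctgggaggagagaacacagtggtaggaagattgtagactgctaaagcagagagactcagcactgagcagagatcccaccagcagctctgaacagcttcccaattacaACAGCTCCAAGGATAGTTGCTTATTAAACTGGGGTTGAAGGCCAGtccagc
Mbl2 (chr19:30232678-30232927, plus strand): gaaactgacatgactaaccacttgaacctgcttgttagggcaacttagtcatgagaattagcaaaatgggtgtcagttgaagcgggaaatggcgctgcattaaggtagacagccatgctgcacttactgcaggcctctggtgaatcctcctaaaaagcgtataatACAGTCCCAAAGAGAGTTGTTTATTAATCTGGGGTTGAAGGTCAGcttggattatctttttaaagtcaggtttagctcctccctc
The matching stretch was 45 bases long with 38 identical bases, and it held an exact run of 13 bases. It ended 7 bases before the start of Mbl1 and 41 bases before the start of Mbl2. Among 630 pairs of windows of the genes described here, 1 pair reached the match score of 31 (identical bases minus mismatches), namely Mbl1 with Mbl2.

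In the terminal components the capitals mark matches to any of 4 motifs of liver transcription factors, searched on both strands. These were GTTAAT (hepatocyte nuclear factor 1), CAAAGTCCA (hepatocyte nuclear factor 4), TTGCNNAA (the C/EBP family) and TTCNNNGAA (the STAT family).
C6 (chr15:4726960-4727209, plus strand): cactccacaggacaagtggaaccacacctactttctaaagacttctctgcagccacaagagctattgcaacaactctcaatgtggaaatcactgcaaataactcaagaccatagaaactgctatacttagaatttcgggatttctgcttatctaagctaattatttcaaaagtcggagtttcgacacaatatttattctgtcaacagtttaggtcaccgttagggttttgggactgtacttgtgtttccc
C8a (chr4:104876399-104876648, minus strand): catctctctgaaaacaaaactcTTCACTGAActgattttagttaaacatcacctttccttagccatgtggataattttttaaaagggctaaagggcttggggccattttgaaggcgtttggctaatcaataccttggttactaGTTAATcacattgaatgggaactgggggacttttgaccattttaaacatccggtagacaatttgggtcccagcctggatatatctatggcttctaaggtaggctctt
C8b (chr4:104766067-104766316, plus strand): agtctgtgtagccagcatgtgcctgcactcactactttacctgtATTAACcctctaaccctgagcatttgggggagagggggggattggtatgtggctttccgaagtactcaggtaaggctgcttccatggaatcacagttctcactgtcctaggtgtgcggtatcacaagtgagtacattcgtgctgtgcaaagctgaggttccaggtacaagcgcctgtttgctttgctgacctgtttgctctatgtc
GTTAAT was found in C8a, 107 to 102 bases before the start, and on the other strand in C8b, 206 to 201 bases before it. C8a also held TTCNNNGAA, 228 to 220 bases before the start, and no match overlapped another. None of the 4 motifs was found in these windows of C6, Mbl1 or Mbl2. Of the 45 genes, 36 had an entry in the sequence table, 8 of them among the 9 genes called below. GTTAAT stood in 10 of the 36 windows (27.8%), against 6.43% of all 32851 windows of 250 bases in the table. TTGCNNAA stood in 8 of 36 (22.2%, against 9.56% of all windows) and TTCNNNGAA in 6 of 36 (16.7%, against 7.02%). CAAAGTCCA stood in 0 of 36, against 0.384% of all windows. These are matches of letters and say nothing of whether a factor binds.

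The 2 groups were compared across all genes by edgeR's quasi-likelihood test on the deposited counts, and a gene was called at an adjusted p under 0.05. Total counts per library ranged from 17326516 to 20024888. Dyrk1b stood at 62.2, 101 and 96.5 FPKM in the Ad-Dyrk1b livers, against 3.81, 4.97 and 4.16 FPKM in the Ad-EGFP livers. FPKM is the count scaled to gene length and library size. Albumin RNA and 8 other hepatocyte markers, which summed to 41390 to 49410 FPKM in Ad-Dyrk1b and 47440 to 51290 FPKM in Ad-EGFP livers, had 0 calls among 9 by edgeR (1 at an unadjusted p under 0.05). Red blood cell markers summed to 1392, 1623 and 5749 FPKM in Ad-Dyrk1b libraries 1, 2 and 3, against 822 to 1373 FPKM in the Ad-EGFP libraries. All 6 red blood cell markers had log2 fold changes above 0, and 0 were called (0 at an unadjusted p under 0.05). Bile duct markers summed to 224 to 306 FPKM in Ad-Dyrk1b and 144 to 177 FPKM in Ad-EGFP libraries, without overlap, with 5 of 6 above 0 and 1 called higher. Endothelial markers summed to 87.3 to 125 FPKM in Ad-Dyrk1b and 66.0 to 98.4 FPKM in Ad-EGFP libraries, with 10 of 10 above 0 and 0 called (4 at an unadjusted p under 0.05). Of monocyte and neutrophil markers 9 of 9 lay above 0 and 1 was called, and of T and NK cell markers 6 of 6 lay above 0 and 1 was called. Of stellate cell markers 1 of 8 lay above 0 and of platelet markers 3 of 4, with 0 called in both lists (1 and 0 at an unadjusted p under 0.05). The part of these cell types in the results below was not tested, and calls that were lost without the third Ad-Dyrk1b library are named.

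Of the 45 genes, 44 passed the filter on low counts. Of these, edgeR called 6 higher and 3 lower with Ad-Dyrk1b, or 20.5%, where 12.2% of all 13201 tested genes were called (7.36% higher and 4.81% lower). Over all genes this was 972 higher and 635 lower, but 694 higher and 1051 lower when libraries were scaled by total count alone. Under that scaling 5 of the 44 were higher and 4 lower. Among complement genes Mbl1, C8a and C8b rose and Mbl2 and C6 fell. Among coagulation genes Kng1, F13b and Pros1 rose and F9 fell. Complement had 5 of 24 tested genes called (20.8%) and coagulation 4 of 20 (20%). The median log2 fold change was 0.13 in complement, 0.10 in coagulation and -0.005 over all tested genes. The median size of the change, whatever its direction, was 0.26 in complement and 0.25 in coagulation, against 0.22 over all tested genes. Without the third Ad-Dyrk1b library the coagulation median log2 fold change was -0.03, and without the first the complement median was 0.23. With libraries scaled by total count the medians were 0.04 in complement, 0.01 in coagulation and -0.09 over all tested genes. From log2(FPKM + 1) they were 0.06, 0.01 and -0.06 in the same order. By role, the median ran from -0.08 in fibrin and its crosslinking to 0.26 in the C1 complex and 0.26 in fibrinolysis. The widest changes were in complement, from -0.85 to 1.08, while coagulation ranged from -0.58 to 0.54 (F3, not called). The summed level of the complement genes was 4099 to 4394 FPKM in Ad-Dyrk1b and 3935 to 4470 FPKM in Ad-EGFP livers, so the groups overlapped. That of the coagulation genes was 5263 to 5769 FPKM in Ad-Dyrk1b and 5596 to 6107 FPKM in Ad-EGFP livers, again with overlap.

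**Figure D1:**
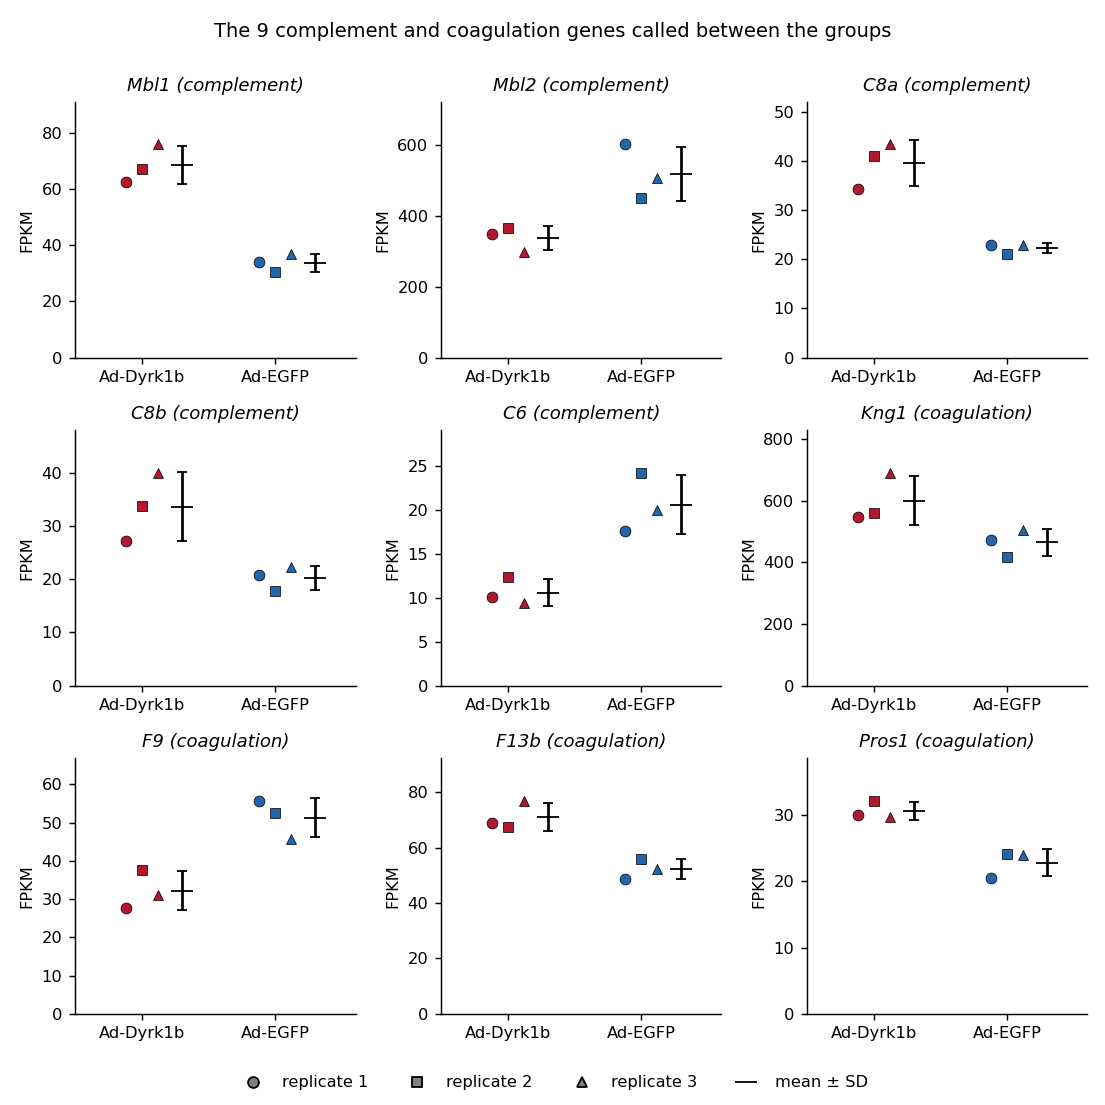
FPKM of the 9 called genes in each library, with Ad-Dyrk1b at the left and Ad-EGFP at the right of each panel. Markers are the 3 libraries of a group and the bar is their mean ± SD. The groups do not overlap in any panel, with Mbl2, C6 and F9 lower and the other 6 higher in Ad-Dyrk1b livers.

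The 6 libraries' FPKM values did not overlap between the groups in 21 of the 44 tested genes (47.7%), 11 of them higher and 10 lower in Ad-Dyrk1b. Over all tested genes this held for 32.8%, 10.9% higher and 21.9% lower. All 9 called genes are among the 21. Separate mice for the libraries of a group are not stated in the labels. The p-values therefore reflect the spread among these samples only, part of which may be technical. In whole liver, fewer cells of a type and less RNA per cell cannot be told apart.

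**Figure D2:**
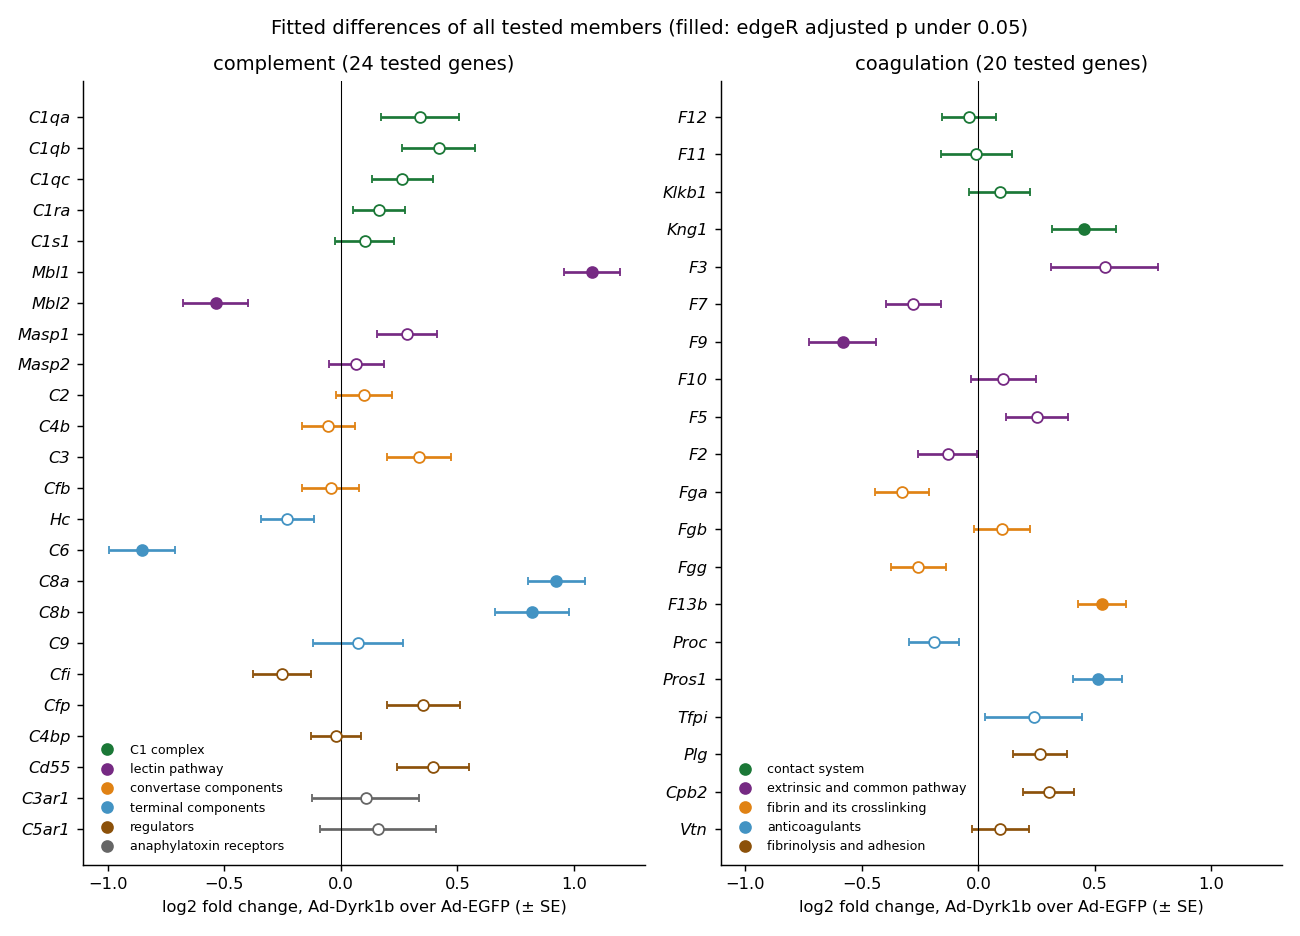
Log2 fold change of Ad-Dyrk1b over Ad-EGFP, with its standard error, for the 24 tested complement genes (left) and the 20 tested coagulation genes (right), coloured by role. Filled points are the 9 called genes. Complement runs from -0.85 (C6) to 1.08 (Mbl1) and coagulation from -0.58 (F9) to 0.54 (F3, not called).

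The lectin pathway starts with mannose-binding lectins, which bind sugars on microbes and carry the proteases Masp1 and Masp2. Mbl1 (ENSMUSG00000037780, chromosome 14, 41151458 to 41159601, mm10) encodes mannose-binding lectin A. It stood at 62.6, 67.2 and 75.8 FPKM in Ad-Dyrk1b livers, against 34.1, 30.5 and 36.9 FPKM in Ad-EGFP livers. Every Ad-Dyrk1b library lay above every Ad-EGFP library, and the log2 fold change was 1.08 ± 0.12, or 2.11-fold (adjusted p = 0.000114, edgeR). It was the largest rise among the 44 genes. Mbl2 (ENSMUSG00000024863, chromosome 19, 30232942 to 30239687) encodes mannose-binding lectin C, which was the more abundant of the pair. It stood at 351, 366 and 299 FPKM in Ad-Dyrk1b livers, against 603, 451 and 507 FPKM in Ad-EGFP livers. All 3 Ad-Dyrk1b libraries were lower, with a log2 fold change of -0.54 ± 0.14 (adjusted p = 0.0258, edgeR). The call for Mbl2 was lost without the first or the third library of either group (adjusted p = 0.0172 to 0.117 by edgeR over fits that each lack 1 library).

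Within a library, the level of Mbl1 was 0.179, 0.184 and 0.253 times that of Mbl2 in Ad-Dyrk1b livers, against 0.0566, 0.0676 and 0.0728 in Ad-EGFP livers. This ratio does not depend on how libraries are scaled to each other, and the groups did not overlap. It and the other ratios given were chosen after the values were seen and carry no test. The stretch shared by the windows of Mbl1 and Mbl2, shown above, thus lies before genes that changed in opposite directions.

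The proteases of the pathway were not called. Masp1 stood at 18.0, 16.5 and 22.7 FPKM in Ad-Dyrk1b livers, against 15.9, 19.7 and 16.1 FPKM in Ad-EGFP livers, with overlap (log2 fold change 0.28 ± 0.13, adjusted p = 0.170, edgeR). It overlaps the coding gene Rtp4, and the strand setting of the counting was not given in the sources used here. In all, 7 of the 45 genes overlap another coding gene, Klkb1 (Gm45753) and Plg (Slc22a3) among them. Of the further genes named below, C8g (Fbxw5), Vkorc1 (Gm21974) and Fgl2 (Ccdc146) also overlap one. Masp2 encodes the protease that cleaves C4 and C2, and also a short protein without the protease domain. It stood at 57.9, 58.7 and 61.5 FPKM in Ad-Dyrk1b livers, against 74.6, 70.2 and 64.8 FPKM in Ad-EGFP livers, all lower. Its CPM values (counts scaled to library size) were 104, 107 and 129 in Ad-Dyrk1b livers, against 121, 115 and 108 in Ad-EGFP livers, and these overlapped. From the counts its log2 fold change was 0.07 ± 0.12 (adjusted p = 0.757, edgeR), while from log2(FPKM + 1) it was -0.23 (limma adjusted p = 0.182).

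The scales part in the gene length that the FPKM of Masp2 implies, which was not constant. The length implied by a count and its FPKM was 1793, 1824 and 2093 bases in Ad-Dyrk1b livers, against 1625, 1636 and 1673 bases in Ad-EGFP livers, without overlap. The mean log2 difference was 0.21, and 1.14% of 8429 genes with enough counts had one as large. Of the 41 genes described here with enough counts for this measure, 26 had a length constant within 1% over the 6 libraries. Over all 8429 genes this held for 42%. In 5 of the 41 genes the length varied by 10% or more. Besides Masp2 these were C2, Hc, C3 and Cfb, whose lengths varied by 14.0%, 28.5%, 17.6% and 31.6% with overlapping groups. How the authors set the length was not stated. Masp2 overlaps Tardbp on the other strand, and the part of that overlap was not tested.

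**Figure D3:**
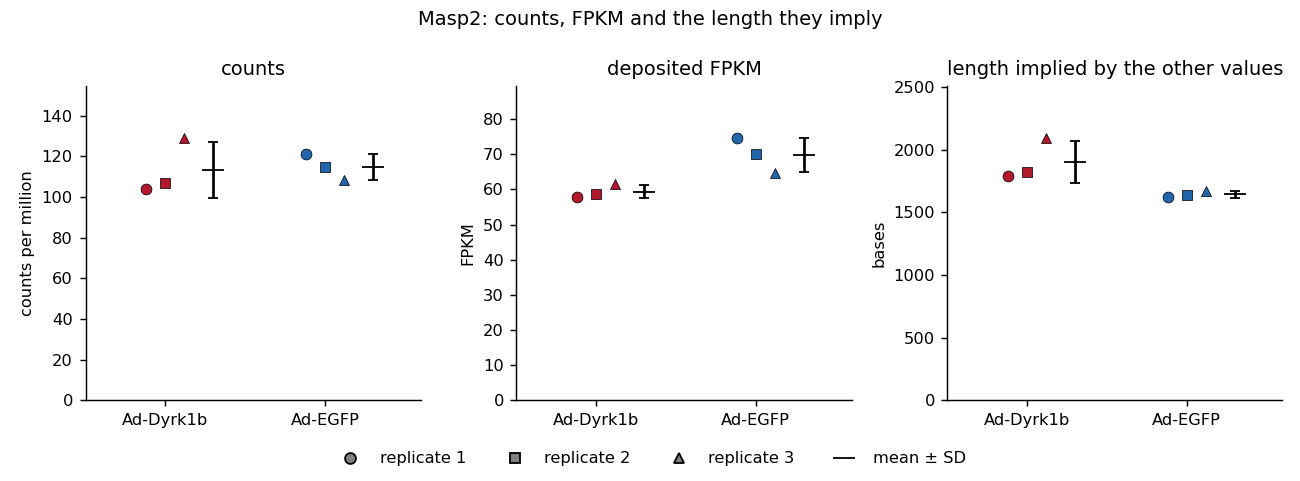
Masp2 in CPM (left), deposited FPKM (middle) and the gene length in bases that these imply (right), with Ad-Dyrk1b at the left of each panel and mean ± SD beside the libraries. Counts overlap between the groups, whereas FPKM is lower and the implied length higher in all 3 Ad-Dyrk1b libraries.

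The terminal components build the membrane attack complex, in which C5b, C6 and C7 dock on the membrane, C8 inserts and C9 forms the pore. C6 (ENSMUSG00000022181, chromosome 15, 4727175 to 4814967) stood at 10.1, 12.4 and 9.35 FPKM in Ad-Dyrk1b livers, against 17.6, 24.2 and 19.9 FPKM in Ad-EGFP livers. Each Ad-Dyrk1b library was lower, with a log2 fold change of -0.85 ± 0.14, or 0.553-fold (adjusted p = 0.00265, edgeR). It was the largest fall among the 44 genes.

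C8 is built of an alpha, a beta and a gamma chain. C8a (ENSMUSG00000035031, chromosome 4, 104815679 to 104876398, minus strand) stood at 34.4, 41.0 and 43.3 FPKM in Ad-Dyrk1b livers, against 22.9, 21.0 and 23.0 FPKM in Ad-EGFP livers. C8b (ENSMUSG00000029656, chromosome 4, 104766317 to 104804548, plus strand) stood at 27.1, 33.8 and 40.1 FPKM in Ad-Dyrk1b livers, against 20.8, 17.8 and 22.3 FPKM in Ad-EGFP livers. Both genes were higher in every Ad-Dyrk1b library, with log2 fold changes of 0.92 ± 0.12 for C8a (adjusted p = 0.000569, edgeR) and 0.82 ± 0.16 for C8b (adjusted p = 0.00741, edgeR). They lie tail to tail, 11.1 kb apart, and C8a overlaps the coding gene model Gm17662 on the other strand. The ratio of C8a to C8b was 1.27, 1.21 and 1.08 in Ad-Dyrk1b livers, against 1.10, 1.18 and 1.03 in Ad-EGFP livers, with overlap. C8g, the gamma chain gene, lies on another chromosome and was not called, with a log2 fold change of 0.38 ± 0.13 (adjusted p = 0.0680, edgeR). Its FPKM was nevertheless higher in every Ad-Dyrk1b library, at 94.2, 103 and 101 FPKM, against 90.2, 68.4 and 84.6 FPKM in Ad-EGFP livers. Within a library C6 stood at 0.293, 0.302 and 0.216 times the level of C8a in Ad-Dyrk1b livers, against 0.768, 1.15 and 0.868 in Ad-EGFP livers.

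The other terminal components were not called. Hc, which encodes C5, stood at 62.8, 58.1 and 56.3 FPKM in Ad-Dyrk1b livers, against 83.1, 72.2 and 85.1 FPKM in Ad-EGFP livers. Its FPKM was lower in every Ad-Dyrk1b library, but its log2 fold change from counts was -0.23 ± 0.11 (adjusted p = 0.201, edgeR). It was called lower from log2(FPKM + 1) (limma adjusted p = 0.0378). C9 stood at 47.0, 75.2 and 50.3 FPKM in Ad-Dyrk1b livers, against 51.0, 62.1 and 62.0 FPKM in Ad-EGFP livers, with overlap (log2 fold change 0.07 ± 0.19, adjusted p = 0.838, edgeR).

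**Figure D4:**
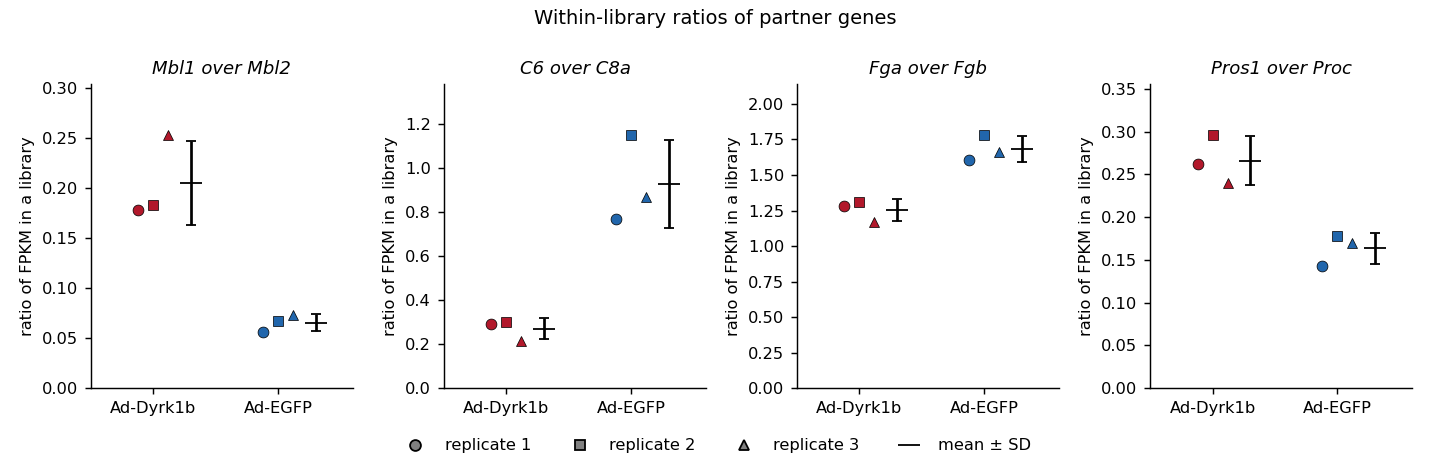
Ratio of the FPKM of partner genes within each library, with Ad-Dyrk1b at the left and Ad-EGFP at the right of each panel and the mean ± SD beside the 3 libraries. The groups do not overlap in the 4 ratios: Mbl1 over Mbl2 and Pros1 over Proc are higher in Ad-Dyrk1b livers, and C6 over C8a and Fga over Fgb are lower.

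The central components C4b, C2, C3 and Cfb form the enzymes that cleave C3 and C5, and 0 of the 4 were called by edgeR (1 at an unadjusted p under 0.05). C3, the most abundant complement RNA, stood at 1705, 1707 and 1894 FPKM in Ad-Dyrk1b livers, against 1557, 1396 and 1691 FPKM in Ad-EGFP livers. Every Ad-Dyrk1b library was higher, but narrowly, with a log2 fold change of 0.33 ± 0.14 (adjusted p = 0.128, edgeR), and DESeq2 called it (DESeq2 adjusted p = 0.0475). C2 stood at 29.6, 35.1 and 31.9 FPKM in Ad-Dyrk1b livers, against 31.6, 30.2 and 32.0 FPKM in Ad-EGFP livers, with overlap (log2 fold change 0.10 ± 0.12, adjusted p = 0.630, edgeR). C4b and Cfb also overlapped, with log2 fold changes of -0.05 ± 0.11 and -0.04 ± 0.12 (adjusted p = 0.789 and 0.838, edgeR). C2 and Cfb both overlap the coding gene model Gm20547.

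Cfd, the adipocyte-derived protease known as adipsin, did not pass the filter. It had 61, 0 and 0 counts in Ad-Dyrk1b libraries 1, 2 and 3, against 2, 1 and 2 counts in the Ad-EGFP libraries, so nearly all of its counts lay in the first Ad-Dyrk1b library. The adipocyte markers Adipoq, Plin1, Retn and Lep summed to 1.27, 0.06 and 0.13 FPKM in Ad-Dyrk1b libraries 1, 2 and 3, against 0.09, 0 and 0 FPKM in the Ad-EGFP libraries. They were thus highest in the library with Cfd. The part of fat tissue in that value was not tested. The 2 other adipocyte markers on the list, Fabp4 and Cidec, are also expressed by other liver cells, and with them the 6 markers summed to 84.3 to 103 FPKM in Ad-Dyrk1b and 43.4 to 85.1 FPKM in Ad-EGFP livers.

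The C1 complex binds antibody through C1q and signals through the proteases C1r and C1s. All 5 of its genes had log2 fold changes above 0, from 0.10 to 0.42, and 0 of the 5 were called by edgeR or DESeq2 (1 at an unadjusted edgeR p under 0.05). C1qb stood at 195, 145 and 163 FPKM in Ad-Dyrk1b livers, against 96.7, 148 and 155 FPKM in Ad-EGFP livers (log2 fold change 0.42 ± 0.16, adjusted p = 0.103, edgeR). C1qc stood at 151, 124 and 141 FPKM in Ad-Dyrk1b livers, against 95.6, 134 and 138 FPKM in Ad-EGFP livers (log2 fold change 0.26 ± 0.13, adjusted p = 0.203, edgeR). In both genes the groups overlapped, and the first Ad-EGFP library was the lowest and the first Ad-Dyrk1b library the highest.

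C1qa, C1qb and C1qc together stood at 505, 388 and 439 FPKM in Ad-Dyrk1b livers, against 274, 408 and 431 FPKM in Ad-EGFP livers. The 10 macrophage markers other than C1q summed to 574, 437 and 485 FPKM in Ad-Dyrk1b livers, against 303, 443 and 627 FPKM in Ad-EGFP livers, and 1 of 9 tested markers was called (Cd68, higher). Marco and Lyz2 were higher in the third Ad-EGFP library (103 and 142 FPKM) than in the other 5 (8.80 to 23.3 and 60.0 to 83.3 FPKM). Without them, 8 markers summed to 484, 365 and 384 FPKM in Ad-Dyrk1b livers, against 233, 347 and 382 FPKM in Ad-EGFP livers. Leaving out these 2 markers was decided after their values were seen. Adgre1, Timd4 and Cd163 were also highest in that library (22.3, 0.35 and 0.74 FPKM) and were kept. Over all 10 markers the third Ad-EGFP library was the highest, whereas for C1q the first Ad-Dyrk1b library was. None of the 10 markers was at 0 in all libraries. Whether macrophage content accounts for the C1q values was not tested.

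**Figure D5:**
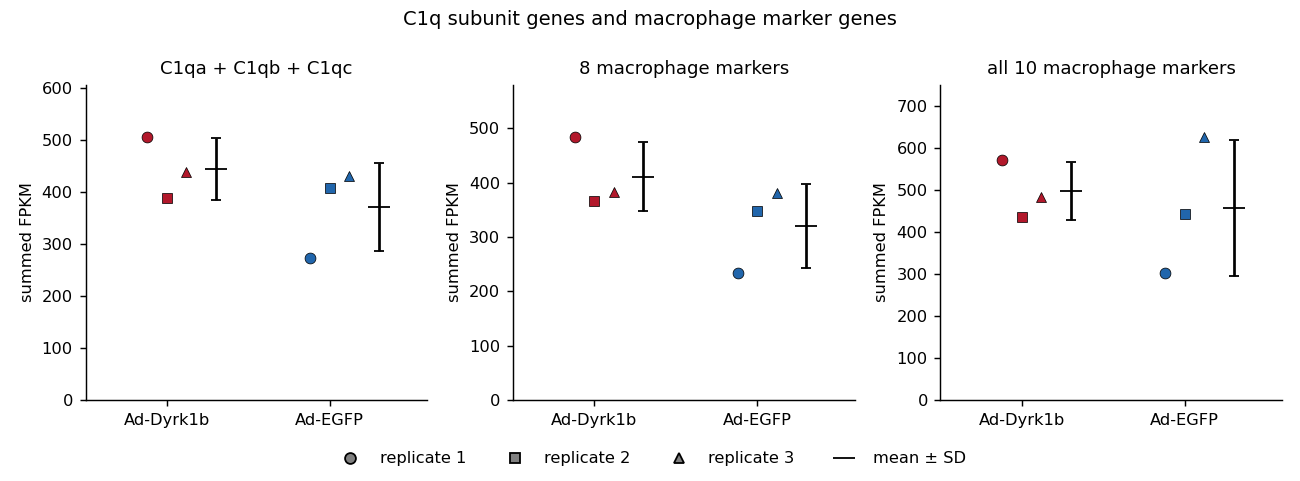
Summed FPKM of C1qa, C1qb and C1qc (left), of 8 macrophage markers (middle) and of all 10 macrophage markers, Marco and Lyz2 included (right), with Ad-Dyrk1b at the left of each panel and mean ± SD beside the libraries. The first Ad-EGFP library is lowest in all 3 panels, and the groups overlap in each.

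Of 4 regulators and 2 receptors of complement, 0 were called by edgeR or DESeq2 (2 and 0 at an unadjusted edgeR p under 0.05). Cd55, which breaks up the C3-cleaving enzymes on host cells, stood at 6.03, 5.69 and 5.57 FPKM in Ad-Dyrk1b livers, against 4.19, 4.13 and 5.46 FPKM in Ad-EGFP livers. All 3 Ad-Dyrk1b libraries were higher, the closest by little (log2 fold change 0.40 ± 0.16, adjusted p = 0.117, edgeR). Cfp encodes properdin, which stabilizes the alternative pathway enzyme and is made by myeloid cells. It stood at 62.2, 49.7 and 53.4 FPKM in Ad-Dyrk1b livers, against 35.2, 42.9 and 59.0 FPKM in Ad-EGFP livers, with overlap (log2 fold change 0.35 ± 0.16, adjusted p = 0.167, edgeR). Without the third Ad-EGFP library, in which Marco and Lyz2 were high, Cfp was called higher (log2 fold change 0.57, adjusted p = 0.0213, edgeR).

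Cfi encodes the protease that degrades active C3 and C4, and C4bp a cofactor of it. They had log2 fold changes of -0.25 ± 0.12 and -0.02 ± 0.11 (adjusted p = 0.201 and 0.908, edgeR). The receptors were low. C3ar1 stood at 2.42, 2.20 and 3.12 FPKM in Ad-Dyrk1b livers, against 1.61, 3.0 and 3.04 FPKM in Ad-EGFP livers (log2 fold change 0.11 ± 0.23, adjusted p = 0.798, edgeR). C5ar1 stood at 1.94, 3.77 and 3.10 FPKM in Ad-Dyrk1b livers, against 1.63, 2.91 and 2.57 FPKM in Ad-EGFP livers (log2 fold change 0.16 ± 0.25, adjusted p = 0.716, edgeR). Both overlapped between the groups.

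In coagulation, the contact system starts from factor XII, plasma prekallikrein and high-molecular-weight kininogen. Kng1, the kininogen gene (ENSMUSG00000022875, chromosome 16, 23057865 to 23082078), stood at 549, 560 and 691 FPKM in Ad-Dyrk1b livers, against 473, 417 and 504 FPKM in Ad-EGFP livers. Each Ad-Dyrk1b library was higher, with a log2 fold change of 0.45 ± 0.14 (adjusted p = 0.0473, edgeR). The call was close to the threshold and was lost without any library but the first Ad-Dyrk1b library (adjusted p = 0.0338 to 0.140 by edgeR over fits that each lack 1 library). Kng2, a near-identical kininogen gene 28.4 kb away, stood at 118, 127 and 136 FPKM in Ad-Dyrk1b livers, against 89.9, 89.0 and 97.8 FPKM in Ad-EGFP livers. It was also higher in every Ad-Dyrk1b library (log2 fold change 0.55 ± 0.11, adjusted p = 0.00722, edgeR). Reads that match both could have been split between them, so the level of each is uncertain. Their summed level was 666, 687 and 827 FPKM in Ad-Dyrk1b livers, against 563, 506 and 602 FPKM in Ad-EGFP livers.

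Hrg, the histidine-rich glycoprotein gene 24.2 kb on the other side of Kng2, stood at 181, 224 and 265 FPKM in Ad-Dyrk1b livers, against 170, 163 and 176 FPKM in Ad-EGFP livers. All 3 Ad-Dyrk1b libraries were higher, the first only just, with a log2 fold change of 0.49 ± 0.15 (adjusted p = 0.0476, edgeR). Its call, like that of Kng1, was lost without any library but the first Ad-Dyrk1b library (adjusted p = 0.00768 to 0.145 by edgeR over fits that each lack 1 library). Klkb1, the prekallikrein gene, stood at 29.7, 28.9 and 39.1 FPKM in Ad-Dyrk1b livers, against 30.7, 31.6 and 34.9 FPKM in Ad-EGFP livers (log2 fold change 0.09 ± 0.13, adjusted p = 0.688, edgeR). F12 stood at 106, 114 and 130 FPKM in Ad-Dyrk1b livers, against 121, 129 and 132 FPKM in Ad-EGFP livers (log2 fold change -0.04 ± 0.12, adjusted p = 0.846, edgeR). Both overlapped, as did F11, at a log2 fold change of -0.01 ± 0.15 (adjusted p = 0.979, edgeR).

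F9 encodes factor IX, the protease whose absence causes haemophilia B (ENSMUSG00000031138, chromosome X, 59999464 to 60030759). It stood at 27.8, 37.7 and 31.2 FPKM in Ad-Dyrk1b livers, against 55.8, 52.5 and 45.7 FPKM in Ad-EGFP livers. Every Ad-Dyrk1b library was lower, with a log2 fold change of -0.58 ± 0.14 (adjusted p = 0.0222, edgeR). The call was lost without the first or the third Ad-Dyrk1b library or the first or second Ad-EGFP library (adjusted p = 0.00733 to 0.0842 by edgeR over fits that each lack 1 library). F7 encodes factor VII, which starts coagulation together with tissue factor, the product of F3. F7 stood at 14.9, 15.2 and 17.5 FPKM in Ad-Dyrk1b livers, against 20.4, 18.9 and 21.8 FPKM in Ad-EGFP livers (log2 fold change -0.28 ± 0.12, adjusted p = 0.139, edgeR). F3 stood at 2.38, 2.43 and 2.52 FPKM in Ad-Dyrk1b livers, against 1.52, 2.17 and 2.19 FPKM in Ad-EGFP livers (log2 fold change 0.54 ± 0.23, adjusted p = 0.142, edgeR). The groups did not overlap in either gene, yet neither was called. F3 had 85, 91 and 78 counts in Ad-Dyrk1b libraries, against 45, 63 and 63 counts in Ad-EGFP libraries. From log2(FPKM + 1) and log2(FPKM + 0.1) the log2 fold change of F3 was smaller, at 0.23 and 0.32 (limma adjusted p = 0.295 and 0.302). F10, F5 and F2, the genes of factor X, factor V and prothrombin, had log2 fold changes of 0.11 ± 0.14, 0.25 ± 0.13 and -0.13 ± 0.13 and overlapping groups.

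Fibrinogen is a hexamer with paired copies of an alpha, a beta and a gamma chain, encoded side by side on chromosome 3 by Fga, Fgb and Fgg. Fga stood at 764, 814 and 740 FPKM in Ad-Dyrk1b livers, against 986, 1017 and 1076 FPKM in Ad-EGFP livers. Fgg stood at 911, 883 and 913 FPKM in Ad-Dyrk1b livers, against 1159, 1056 and 1222 FPKM in Ad-EGFP livers. Both were lower in every Ad-Dyrk1b library, but edgeR called neither, with log2 fold changes of -0.33 ± 0.12 for Fga (adjusted p = 0.0883, edgeR) and -0.26 ± 0.12 for Fgg (adjusted p = 0.170, edgeR). Fga was called lower by DESeq2 (DESeq2 adjusted p = 0.0229), by edgeR with total library size (adjusted p = 0.0263) and in the authors' deposited table (adjusted p = 0.0283). Fgb overlapped between the groups, at 597 to 634 FPKM in Ad-Dyrk1b and 571 to 649 FPKM in Ad-EGFP livers (log2 fold change 0.10 ± 0.12, adjusted p = 0.626, edgeR). The level of Fga relative to Fgb in the same library was 1.28, 1.31 and 1.17 in Ad-Dyrk1b livers, against 1.61, 1.78 and 1.66 in Ad-EGFP livers. That of Fgg relative to Fgb was 1.53, 1.42 and 1.44 in Ad-Dyrk1b livers, against 1.89, 1.85 and 1.88 in Ad-EGFP livers. Both ratios were lower in every Ad-Dyrk1b library.

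F13b encodes the carrier subunit of factor XIII, the enzyme that crosslinks fibrin (ENSMUSG00000026368, chromosome 1, 139501702 to 139523752). It stood at 68.9, 67.6 and 77.1 FPKM in Ad-Dyrk1b livers, against 48.8, 55.9 and 52.4 FPKM in Ad-EGFP livers. All 3 Ad-Dyrk1b libraries were higher, with a log2 fold change of 0.53 ± 0.11 (adjusted p = 0.00667, edgeR). F13a1, the gene of the catalytic subunit, which is made by cells of the myeloid and platelet lineages, stood below 0.5 FPKM in all libraries and was not called (adjusted p = 0.149, edgeR).

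Among the anticoagulants, Pros1 encodes protein S (ENSMUSG00000022912, chromosome 16, 62854307 to 62929346), the cofactor of activated protein C. It stood at 30.0, 32.2 and 29.8 FPKM in Ad-Dyrk1b livers, against 20.5, 24.2 and 23.9 FPKM in Ad-EGFP livers. Each Ad-Dyrk1b library was higher, with a log2 fold change of 0.51 ± 0.11 (adjusted p = 0.00804, edgeR). Proc, the protein C gene, stood at 114, 109 and 124 FPKM in Ad-Dyrk1b livers, against 143, 136 and 141 FPKM in Ad-EGFP livers. It was lower in every Ad-Dyrk1b library but not called (log2 fold change -0.19 ± 0.11, adjusted p = 0.263, edgeR). Pros1 stood at 0.263, 0.296 and 0.240 times the level of Proc in Ad-Dyrk1b livers, against 0.143, 0.178 and 0.170 in Ad-EGFP livers. Tfpi, the gene of the inhibitor of tissue factor, overlapped, at 6.06, 2.90 and 4.69 FPKM in Ad-Dyrk1b livers, against 3.32, 4.42 and 4.34 FPKM in Ad-EGFP livers (log2 fold change 0.24 ± 0.21, adjusted p = 0.490, edgeR).

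F2, F7, F9, F10, Proc and Pros1 encode proteins that need vitamin K for their carboxylation. Of these 6, 1 rose (Pros1), 1 fell (F9) and 4 were not called, with a median log2 fold change of -0.16. These calls are 33.3% of the 6, beside 12.2% of all tested genes. The carboxylase gene Ggcx and the vitamin K reductase gene Vkorc1 were not called, at log2 fold changes of 0.12 ± 0.12 and 0.13 ± 0.13 (adjusted p = 0.539 and 0.529, edgeR).

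Fibrin is dissolved by plasmin, and the carboxypeptidase encoded by Cpb2 slows this. Plg, the plasminogen gene, stood at 436, 470 and 491 FPKM in Ad-Dyrk1b livers, against 400, 418 and 417 FPKM in Ad-EGFP livers (log2 fold change 0.26 ± 0.12, adjusted p = 0.157, edgeR). Cpb2 stood at 289, 286 and 258 FPKM in Ad-Dyrk1b livers, against 215, 256 and 246 FPKM in Ad-EGFP livers (log2 fold change 0.30 ± 0.11, adjusted p = 0.0922, edgeR). In both genes the groups did not overlap, and neither was called, although DESeq2 called Cpb2 (DESeq2 adjusted p = 0.0454). Vtn, which encodes the adhesion protein vitronectin, overlapped, with a log2 fold change of 0.09 ± 0.12 (adjusted p = 0.658, edgeR).

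Among 25 further complement genes found in the table (of 27 listed), 20 were tested, and 2 rose and 1 fell. This was 15%, beside 12.2% of all tested genes, with a median log2 fold change of 0.07. Fcna, a ficolin that starts the lectin pathway like the mannose-binding lectins, stood at 49.3, 40.3 and 44.3 FPKM in Ad-Dyrk1b livers, against 33.3, 33.6 and 36.8 FPKM in Ad-EGFP livers. It rose by 0.45 ± 0.10 on the log2 scale, as used for the changes below (adjusted p = 0.0118, edgeR), a change lost as a call from FPKM (limma adjusted p = 0.0711). C1qbp, a mitochondrial protein that also binds C1q, rose by 0.43 ± 0.10 (adjusted p = 0.0186, edgeR). Its call was lost without the second Ad-Dyrk1b library or the first or second Ad-EGFP library (adjusted p = 0.0269 to 0.0633 by edgeR over fits that each lack 1 library). Cr2, the complement receptor of B cells and follicular dendritic cells, fell by 1.64 ± 0.41 (adjusted p = 0.0224, edgeR). It rests on 10, 10 and 7 counts in Ad-Dyrk1b libraries, against 34, 32 and 17 counts in Ad-EGFP libraries, and was kept only without the third Ad-EGFP library (adjusted p = 0.0219 to 0.0915 by edgeR over fits that each lack 1 library).

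Of 25 further coagulation genes, all tested, 5 rose and 1 fell, or 24%, beside 12.2% of all tested genes, with a median log2 fold change of 0.29. Those called higher numbered 2 from FPKM, 3 with total library size, and 3 to 7 with 1 library left out. F2rl1, a protease-activated receptor, stood at 2.22, 2.20 and 1.14 FPKM in Ad-Dyrk1b livers, against 0.470, 0.500 and 0.420 FPKM in Ad-EGFP livers, a log2 fold change of 2.08 ± 0.31 (adjusted p = 0.00113, edgeR). Tfpi2, a paralog of Tfpi, stood at 16.7, 16.4 and 19.2 FPKM in Ad-Dyrk1b livers, against 36.1, 32.1 and 28.4 FPKM in Ad-EGFP livers, and fell by 0.75 ± 0.12 (adjusted p = 0.00222, edgeR). S100a10, which with annexin A2 forms a plasminogen receptor, rose by 0.61 ± 0.13 (adjusted p = 0.00856, edgeR). Fgl2, a fibrinogen-like prothrombinase of macrophages and endothelium, rose by 0.62 ± 0.17 (adjusted p = 0.0331, edgeR), a call lost without the second or the third Ad-Dyrk1b library or the first or the third Ad-EGFP library (adjusted p = 0.0192 to 0.109 by edgeR over fits that each lack 1 library). Kng2 and Hrg, described above, are the other 2 that rose. From log2(FPKM + 1), C1qbp, S100a10, Fgl2 and Hrg were not called (limma adjusted p = 0.0733, 0.0523, 0.0894 and 0.121).

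The deposited table assigned 94 genes to its pathway term for the complement and coagulation cascades, 44 of the 45 genes described here among them. The 50 others held 36 tested genes, of which 2 rose and 2 fell, or 11.1%, against 12.2% over all tested genes. Without the serpins among them, 25 were tested and 1 rose and 1 fell, or 8%. In the authors' deposited table, 6 of the 45 genes had an adjusted p under 0.05 and a log2 ratio above 0, and 4 had such a p and one below 0. Together these were 22.2% of the 45 genes, where 7.4% of all 22274 genes in that table had such a p (4.65% higher and 2.76% lower), genes with few counts included. The 10 include all 9 genes called by edgeR, and Fga.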

How the data were processed

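RNA was measured by mRNA sequencing of liver in 6 libraries, 3 per group. Per the labels' protocols, a NEBNext Ultra kit and an Illumina Novaseq were used. Per the file headers, the deposited table held raw counts and FPKM of each library. The authors also deposited group means of FPKM, their log2 ratio, and a p-value with its adjustment. Per the submitters' processing notes the build was mm10 and DESeq2 was used. The aligner, counter and annotation were not given in the sources used here.

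Counts were tested with edgeR 4.0.16 (R 4.3.3): filterByExpr with a minimum count of 10 and a minimum total count of 15, TMM normalization, and its robust quasi-likelihood test, two-sided, with Benjamini-Hochberg adjustment over 13201 genes. Each log2 fold change sets Ad-Dyrk1b over Ad-EGFP and is given ± its standard error. Total counts were 17326516 to 20024888, so 3 counts equal 0.150 to 0.173 CPM. Implied length is the count divided by the library's total and by FPKM, scaled to bases, for genes with a mean count over 200 and FPKM of 1 or more throughout. Positions are from GENCODE M21.

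The genes, lists and tests were chosen with earlier results of these data known. The text names every called gene, the 2 uncalled genes of each role with the smallest p, and up to 6 called genes of each further list. C4bp, C4b, Cfb, Cfi, F2, F5, F10, F11, Fgb, Vtn, C8g, F13a1, Ggcx and Vkorc1 are given beyond this rule. Alternatives were DESeq2 1.42.0, limma 3.58.1 (voom on counts, and trend on log2 FPKM with a pseudocount of 1 or 0.1), other scalings, no filter, a replicate block and leaving out each library.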

Additional observations from a re-analysis of the deposited data

How the results depend on the processing

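Of 126 fits of the 9 called genes under 14 alternatives, 109 kept the call and direction, 17 kept the direction without the call and 0 reversed. Mbl1, C6, C8a, C8b, F13b and Pros1 were called under all 14. The lost calls were those of Mbl2, F9 and Kng1. Kng1 was also lost with limma-voom (adjusted p = 0.0524), total library size (adjusted p = 0.0728, edgeR) and limma-trend on FPKM (adjusted p = 0.113 and 0.110 with pseudocounts of 1 and 0.1). With 1 library left out, complement genes called lower numbered 1 to 2 and coagulation genes called lower 0 to 1. Complement genes called higher ranged from 3 to 4 in those fits, and coagulation genes called higher ranged from 2 to 3. Fga joined as a coagulation gene called lower, making 2, with DESeq2, with total library size and with limma-trend on FPKM at either pseudocount. Moving Vtn to complement changed no count. Of the further complement genes, those called higher numbered 0 to 3 and those called lower 0 to 2 over all alternatives.

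Over all genes, those called higher numbered 972, but 566 and 569 with limma-trend on FPKM (pseudocounts of 1 and 0.1), and 612 to 800 with 1 library left out. Those called lower numbered 635, but 1051 with total library size, and 294 to 461 with 1 library left out. The median log2 fold change of all genes was -0.005, but -0.09 with total library size. With limma-trend on FPKM it was -0.06 and -0.08 (pseudocounts of 1 and 0.1).

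Of the uncalled genes, the 2 of each role with the smallest p were refitted, and signs near 0 turned in 7 of these. With total library size, Masp2 was at -0.0205 and C9 at -0.0242. With limma-trend on log2(FPKM + 1), and + 0.1, Masp2 was at -0.23 and -0.23, C9 at -0.0461 and -0.0472, and Klkb1 at -0.0064 and -0.0069. With 1 library left out, Masp2 ranged from -0.0433 to 0.15, C2 from -0.0132 to 0.22, C9 from -0.21 to 0.23, C5ar1 from -0.0471 to 0.32, C3ar1 from -0.13 to 0.25, Klkb1 from -0.0678 to 0.18 and F12 from -0.13 to 0.054.

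With the replicate number as a block, all 9 called genes were called and no other was added, as 6 higher and 3 lower. The numbers were not taken as pairs, since the deviations of same-numbered libraries correlated at 0.02, 0.17 and 0.11, and the first Ad-Dyrk1b library correlated best with the third Ad-EGFP library (0.08). Cfd and Cr2 rest on few counts.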
